A study of Mus musculus with 4 samples.

Results

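The comparison concerns the small RNA of exosomes, vesicles shed into culture medium, from 2 mouse colon carcinoma lines after capture with a Wako kit. C26 tumours serve as a common model of cancer wasting in mice, and MC38 is a second colon carcinoma line. Both lines were grown in exosome-free medium, and the vesicles were bound from the conditioned medium with a Wako exosome ELISA kit built on capture and streptavidin HRP. Each line gave 1 Wako library, called C26 Wako and MC38 Wako below, and 1 library made with ExoQuick-TC, a precipitation reagent, called C26 ExoQuick and MC38 ExoQuick. The labels name no treatment, genotype or passage, and leave unsaid if separate cultures were used for the libraries. The rows compared were the mature miRNAs with at least 10 reads in either Wako library, which were 161 of 795 entries in the table and 161 of the 422 entries with any Wako read.

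A mature miRNA is a short RNA cut from a hairpin precursor and loaded onto an Argonaute protein, where its seed, bases 2 to 8 counted from the 5′ end, pairs with target messenger RNAs and lowers their output. miRNAs of the same seed share many targets, so families are read together as well as singly. Tumour cells release miRNAs in exosomes, and those of colon cancer have been studied as signals to other tissues and as markers in blood. Capture on an antibody or receptor picks vesicles by their surface, whereas precipitation also takes down other particles that carry RNA. Levels are shares of a library, so fewer vesicles with a miRNA and fewer copies per vesicle cannot be told apart.

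The mature sequences on which the comparison turns are given first, grouped by seed, with the seed in capitals. They come from the RefSeq annotation of the mouse genome build GRCm38, which matched 141 of the 161 miRNAs by name. The first set, the miR-125 seed group, held the highest C26 excess among miRNAs with at least 10 reads in both libraries, while miR-351-5p was not called.
miR-125b-5p: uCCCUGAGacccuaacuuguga
miR-125a-5p: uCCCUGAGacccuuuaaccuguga
miR-351-5p: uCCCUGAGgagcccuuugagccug

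The let-7 guides are shown because they share a seed, differ by few bases outside it, and still lay on different sides of an equal level.
let-7a-5p: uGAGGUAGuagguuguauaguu
let-7b-5p: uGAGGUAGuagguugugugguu
let-7c-5p: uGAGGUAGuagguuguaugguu
let-7d-5p: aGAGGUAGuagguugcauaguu
let-7e-5p: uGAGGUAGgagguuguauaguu
let-7f-5p: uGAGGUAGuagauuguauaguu

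The miR-130 and miR-301 seed group is shown as the family with the largest number of reads in excess in MC38 Wako.
miR-130a-3p: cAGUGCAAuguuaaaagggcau
miR-130b-3p: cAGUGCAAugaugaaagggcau
miR-301a-3p: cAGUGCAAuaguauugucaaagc

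The remaining sequences belong to other called miRNAs with a known role in tumours or immune cells, and to the miR-19 pair, of which 1 was called.
miR-31-5p: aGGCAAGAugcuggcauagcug
miR-21a-5p: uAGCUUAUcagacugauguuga
miR-221-3p: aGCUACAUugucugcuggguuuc
miR-222-3p: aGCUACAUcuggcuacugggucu
miR-29a-3p: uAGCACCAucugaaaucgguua
miR-146a-5p: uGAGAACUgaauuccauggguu
miR-19a-3p: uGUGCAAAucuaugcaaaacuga
miR-19b-3p: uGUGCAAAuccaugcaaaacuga

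The library totals were 33692 reads for C26 Wako and 3867 for MC38 Wako, an 8.71-fold gap, against 1356801 and 340643 for C26 ExoQuick and MC38 ExoQuick. A single read was therefore worth 29.7 RPM (reads scaled by the library total) in C26 Wako and 259 RPM in MC38 Wako. A count of 0, which allows up to 3 reads, allows up to 89.0 RPM in C26 Wako and 776 RPM in MC38 Wako. With 1 library a side there is no replicate check and no p-value for a ratio. Every ratio below is the RPM level in C26 Wako over that in MC38 Wako, with its exact 95% interval for the ratio of read counts, and intervals and floors cover counting error only. A miRNA was called when the ratio was at least 2, or at most 0.5, and the interval lay wholly on that side of 1. Against 0 reads the ratio was taken to the 3-read floor of the library.

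The labelled origin was checked against markers of the colon epithelium. Of 7 epithelial markers, among them the miR-200 group, miR-203-3p alone was matched in the table, with 0 reads in both Wako libraries. Of 4 intestinal markers, miR-192-5p and miR-194-5p were matched, with 5 reads in all (148 RPM) in C26 Wako and 4 (1034 RPM) in MC38 Wako. Their summed ratio was 0.143 (0.0309 to 0.723), against 1.18 (0.736 to 1.96) in the ExoQuick pair. miR-194-5p, with 4 reads in each Wako library, met the call for MC38. Markers of colon epithelium thus had few or 0 reads in both libraries at this depth. Mesenchymal markers were far higher, as all 6 listed miRNAs of the miR-199 and miR-214 hairpins passed the minimum of 10 reads. Their summed level was 60103 RPM in C26 Wako and 40341 RPM in MC38 Wako, a ratio of 1.49 (1.27 to 1.76), against 122260 RPM in C26 ExoQuick and 1339 RPM in MC38 ExoQuick, a ratio of 91.3.

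That gap between the kits also held for miR-298-5p, miR-142a-5p, miR-296-3p and miR-222-3p, which are outside the mesenchymal list. Of the entries, 8 had at least 1000 reads in C26 ExoQuick and a level at least 20 times that in MC38 ExoQuick, and all 8 were among the 161 and had reads in MC38 Wako. For each 1000 reads in C26 ExoQuick, MC38 Wako held between 0.871 and 3.06 reads of these miRNAs, with a median of 1.06. The proportion was 0.938 for miR-214-3p, 0.871 for miR-199a-3p, 1.44 for miR-298-5p, 0.910 for miR-296-3p and 1.18 for miR-222-3p. It was highest for miR-199a-5p, at 1.53, and miR-142a-5p, at 3.06. As MC38 Wako totalled 3867 reads and C26 ExoQuick 1356801, even an equal level in both gives a low proportion. miR-142a-5p was near an equal level, with 4913 RPM in MC38 Wako and 4584 RPM in C26 ExoQuick. The others had a lower level in MC38 Wako than in C26 ExoQuick. MC38 Wako thus held reads of miRNAs that were at least 20 times higher in C26 than in MC38 under the other kit. The part of this pattern in the results was not tested. Since the MC38 Wako library is so small, an alternative chosen after seeing the data took 0.871 reads per 1000 C26 ExoQuick reads off both Wako libraries. This removes 3.51% of the C26 Wako total and 30.6% of the MC38 Wako total. A miRNA that loses no reads thus falls in ratio by construction. miR-690 kept its 1031 reads in C26 Wako and 97 in MC38 Wako, and its ratio went from 1.22 to 0.878. The counts of calls, and the results that it changes most, are given below with this share taken off. Their intervals treat the reads left as counted reads. They leave out the counting error of the reads taken off and of the share itself, so they are too narrow. The share is the proportion of miR-199a-3p and miR-199b-3p, whose values are identical, so this step takes all their MC38 Wako reads off by construction. The mesenchymal sum, which includes these reads, then stood at 1880 reads in C26 Wako and 11 in MC38 Wako. Its ratio was 14.1 (7.87 to 28.3). Of the 6, 4 were called higher in C26, miR-199a-3p and miR-199b-3p by construction. miR-214-3p and miR-199a-5p, also called, are among the 8 miRNAs above. The share was the lowest proportion among these 8, so what the step does to any of them is not independent of how they were picked.

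The 161 miRNAs took 97.9% of the listed reads in C26 Wako and 97.2% in MC38 Wako. A minimum of 10 reads in either library keeps the best-read entries, so these shares do not measure how alike the libraries were. Of the 161, 47 had at least 10 reads in both libraries, 113 entered through C26 Wako alone and 1, miR-146a-5p, entered through MC38 Wako alone. All 161 had reads in C26 Wako, whereas 36 had 0 reads in MC38 Wako. Over the 125 with reads in both, the median ratio was 1.15, and over the 47 with at least 10 reads in both it was 1.12, with a range of 0.240 to 7.53. The log2 levels of those 47 in C26 Wako and MC38 Wako had a Pearson r of 0.798, given as a description across miRNAs that share their libraries.

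Higher levels in C26 were called for 18 of the 161 miRNAs, or 11.2%, and higher levels in MC38 for 7, or 4.35%. The background over the 422 entries with any Wako read was 4.27% called higher in C26 and 3.32% called higher in MC38. The 18 C26 calls were all among the 161, since an entry under 10 reads in C26 Wako cannot reach a C26 call, so the share in C26 says little beyond that minimum. The share of MC38 calls was close to its background. Among the 47 with at least 10 reads in both, 8 were called higher in C26 and 3 in MC38. After the share of C26 ExoQuick reads was taken off, 21 were called higher in C26 and 13 in MC38, with 13 of the 18 and 6 of the 7 kept and 0 turned to the other side. Among the 47 the counts were then 14 in C26 and 6 in MC38. Lost in this way were let-7b-3p, let-7f-5p, miR-296-5p, miR-3102-3p and miR-99b-3p on the C26 side and miR-19a-3p on the MC38 side. Median-of-ratios scaling in place of library totals lowers every log2 ratio by 0.16, which kept 12 of the 18 and all 7 and added let-7c-5p to the MC38 calls.

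**Figure D1:**
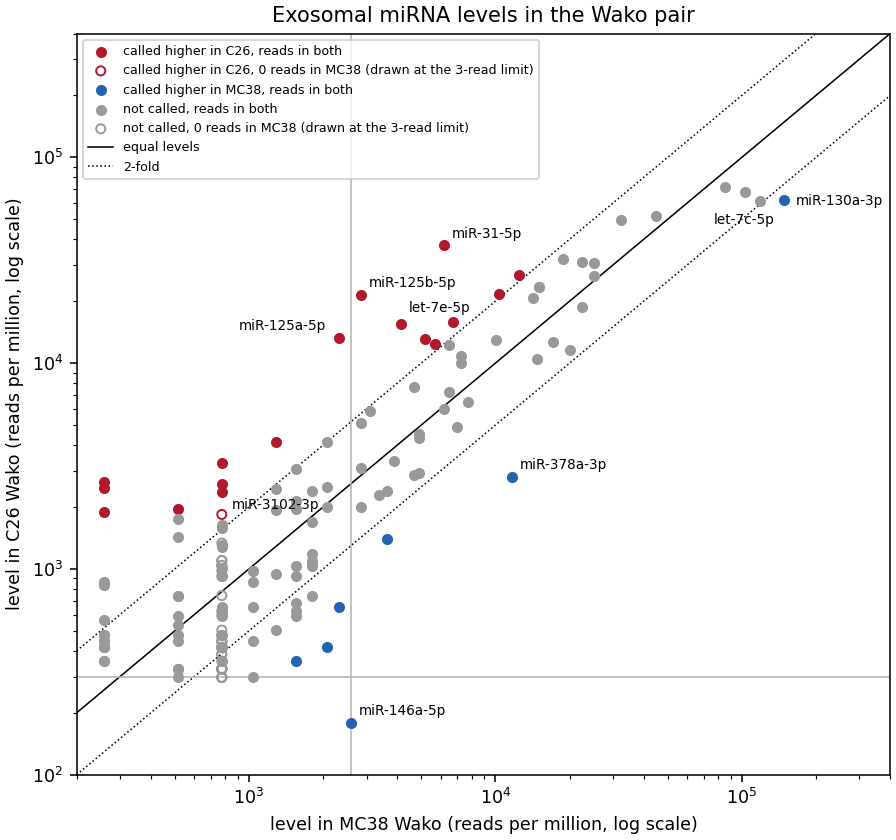
Level of each of the 161 miRNAs in C26 Wako (vertical) against MC38 Wako (horizontal), both in RPM on log scales, with 18 called higher in C26 in red and 7 called higher in MC38 in blue. Open circles stand for 0 reads in MC38 Wako and are drawn at 776 RPM, the 3-read limit; the grey lines mark 10 reads, and calls crowd at the left where MC38 Wako held 1 to 5 reads.

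The 4 miRNAs with an interval wholly above 2 were miR-125b-5p, miR-31-5p, miR-125a-5p and let-7e-5p. miR-125b-5p, a relative of the worm lin-4 miRNA that acts in differentiation and in p53 signalling, had 722 reads (21429 RPM) in C26 Wako and 11 reads (2845 RPM) in MC38 Wako. Its ratio was 7.53 (4.19 to 15.2), and the ExoQuick pair lay further apart, at 15.7 (12.1 to 20.6). miR-31-5p, which is raised in many human colorectal tumours, had 1258 reads (37338 RPM) in C26 Wako and 24 reads (6206 RPM) in MC38 Wako. Its ratio was 6.02 (4.02 to 9.43), almost the value of 6.05 in the ExoQuick pair, which made it the C26 call on which the kits lay closest together. Its hairpin lies at chr4:88910557-88910662 on the minus strand of GRCm38, in an exon of the long noncoding RNA gene AL805899.1.

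miR-125a-5p, with the seed of miR-125b-5p, had 448 reads (13297 RPM) in C26 Wako and 9 reads (2327 RPM) in MC38 Wako, a ratio of 5.71 (2.98 to 12.6). let-7e-5p had 524 reads (15553 RPM) in C26 Wako and 16 reads (4138 RPM) in MC38 Wako, a ratio of 3.76 (2.29 to 6.63). Both come from neighbouring hairpins of chromosome 17, at chr17:17830352-17830444 for let-7e and chr17:17830812-17830879 for miR-125a, both on the plus strand within Spaca6. The other arm of the second hairpin, miR-125a-3p, had 59 reads in C26 Wako and 2 in MC38 Wako, a ratio of 3.39 whose interval of 0.897 to 28.6 holds 1. miR-99b, which is processed with both in mammals, gave ratios of 1.79 (0.978 to 3.66) for its 5p arm and 3.33 (1.10 to 16.5) for its 3p arm, which was called. All 5 products of these hairpins among the 161 thus had ratios above 1, and 3 of them were called. With the share taken off, 3 of the 5 were called too, with miR-99b-5p at 3.41 (1.31 to 12.7) in place of miR-99b-3p.

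miR-221-3p lies with miR-222-3p at chrX:19146294-19146971 on the minus strand, outside any annotated host, and both hold down the cell cycle inhibitor p27 and the receptor Kit. miR-221-3p had 418 reads (12406 RPM) in C26 Wako and 22 (5689 RPM) in MC38 Wako, a ratio of 2.18 (1.42 to 3.52). miR-222-3p had 110 reads (3265 RPM) in C26 Wako and 3 (776 RPM) in MC38 Wako, a ratio of 4.21 (1.4 to 20.7). The ExoQuick ratios of 19.0 and 37.4 were several times larger, and their intervals lay wholly above those of the Wako pair. With the share of C26 ExoQuick reads taken off, the Wako ratios were 5.53 (2.52 to 15.2) for miR-221-3p and 8.92 (1.57 to 356) for miR-222-3p, and median-of-ratios scaling ended the call of miR-221-3p.

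miR-21a-5p, encoded in an exon of Vmp1 and high in most solid tumours, showed the same. It had 733 reads (21756 RPM) in C26 Wako and 40 (10344 RPM) in MC38 Wako, a ratio of 2.10 (1.53 to 2.97), against 12.4 in the ExoQuick pair. This value hangs on the processing. With the share of C26 ExoQuick reads taken off, miR-21a-5p had 695 reads in C26 Wako and 2 in MC38 Wako, a ratio of 28.7 (7.92 to 237), whereas median-of-ratios scaling ended its call. The 2 reads are what was left of 40, so the interval of 7.92 to 237 is too narrow. miR-29a-3p, whose targets include collagen genes, had 534 reads (15850 RPM) in C26 Wako and 26 (6724 RPM) in MC38 Wako, a ratio of 2.36 (1.59 to 3.64), or 3.58 (2.03 to 6.97) with the share taken off. miR-191-5p had 439 reads (13030 RPM) in C26 Wako and 20 (5172 RPM) in MC38 Wako, a ratio of 2.52 (1.61 to 4.17). Of these 3, miR-191-5p was nearest to its ExoQuick ratio of 2.0, and miR-29a-3p had 4.58 there. let-7f-5p, with 905 reads (26861 RPM) in C26 Wako and 48 (12413 RPM) in MC38 Wako, had a ratio of 2.16 (1.62 to 2.96) but lay below 1 in the ExoQuick pair, at 0.629.

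The other C26 calls rested on 5 reads or fewer in MC38 Wako. miR-1983 had 140 reads in C26 Wako and 5 in MC38 Wako, a ratio of 3.21 (1.34 to 10.1). miR-296-3p and miR-296-5p, the arms of a hairpin near the imprinted Gnas gene, had 80 and 66 reads in C26 Wako against 3 and 2 in MC38 Wako. Their ratios were 3.06 (1.01 to 15.2) and 3.79 (1.01 to 31.9), so both only just cleared 1. miR-29b-1-5p, miR-5100 and let-7b-3p each had 1 read in MC38 Wako, against 89, 83 and 64 in C26 Wako. Their ratios of 10.2 (1.79 to 408), 9.53 (1.66 to 381) and 7.35 (1.27 to 295) are thus hardly bounded from above. A call of this kind says that the level in the C26 Wako library was higher beyond counting error, and almost nothing about by how much. Its interval is not adjusted for the 161 miRNAs compared.

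miR-3102-3p was the 1 call against 0 reads. It had 62 reads (1840 RPM) in C26 Wako, which was 2.37 times the floor of 3 reads in MC38 Wako, and its interval began at 1.87. The next 5 by C26 Wako reads among the 36 with 0 reads in MC38 Wako were miR-365-2-5p with 45, miR-98-5p and miR-193a-5p with 37 each, and miR-615-3p and miR-186-5p with 35 each. Their intervals began between 1.03 and 1.34, and their levels were 1.34 to 1.72 times the floor, so none reached a call.

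Higher levels in MC38 were led by miR-130a-3p, which has been linked to vessel growth in human endothelium and was the most abundant miRNA of MC38 Wako. It had 2102 reads (62389 RPM) in C26 Wako and 572 reads (147918 RPM) in MC38 Wako. The ratio was 0.422 (0.384 to 0.463), the narrowest interval of all calls, and the ExoQuick ratio was 0.364. Its hairpin lies at chr2:84741115-84741178 on the minus strand, with no host gene annotated. miR-301a-3p, of the same seed and from an intron of Ska2, had 47 reads (1395 RPM) in C26 Wako and 14 (3620 RPM) in MC38 Wako, a ratio of 0.385 (0.209 to 0.758). miR-130b-3p had 390 reads (11575 RPM) in C26 Wako and 78 (20171 RPM) in MC38 Wako, and its ratio of 0.574 (0.449 to 0.742) lay below 1 without a call.

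miR-378a-3p, which regulates mitochondrial metabolism, had 94 reads (2790 RPM) in C26 Wako and 45 (11637 RPM) in MC38 Wako, a ratio of 0.240 (0.166 to 0.350). The ExoQuick ratio was lower still, at 0.0712. Its relatives miR-378c and miR-378b had 25 and 12 reads in C26 Wako and 7 and 3 in MC38 Wako, with ratios of 0.410 (0.172 to 1.12) and 0.459 (0.124 to 2.54) that were not called. These differ from miR-378a by few bases, so reads may be divided among them or listed under several.

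miR-146a-5p, induced by NF-kB in immune cells and a brake on the same pathway, was the 1 miRNA let in by MC38 alone. It had 6 reads (178 RPM) in C26 Wako and 10 reads (2586 RPM) in MC38 Wako, a ratio of 0.0689 (0.0206 to 0.209). In the ExoQuick pair it had 45 reads (33.2 RPM) in C26 and 7829 reads (22983 RPM) in MC38, a ratio of 0.00144. MC38 was higher under both kits, by far less under Wako. miR-342-5p, from an intron of Evl, had 14 reads in C26 Wako and 8 in MC38 Wako, a ratio of 0.201 (0.0786 to 0.553), while its 3p arm, with 145 reads in C26 Wako and 19 in MC38 Wako, was at 0.876 (0.541 to 1.5). miR-138-5p, best known from neurons, had 12 reads in C26 Wako and 6 in MC38 Wako, a ratio of 0.230 (0.0797 to 0.745).

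miR-19a-3p, part of the miR-17~92 cluster that Myc induces, was the 1 MC38 call that the ExoQuick pair placed on the other side. It had 22 reads (653 RPM) in C26 Wako and 9 (2327 RPM) in MC38 Wako, a ratio of 0.281 (0.124 to 0.692), against 2.25 (2.05 to 2.49) in the ExoQuick pair. miR-19b-3p, with the same seed, had 354 reads in C26 Wako and 57 in MC38 Wako, a ratio of 0.713 (0.538 to 0.960) that the ExoQuick pair likewise placed above 1, at 1.38. Other products of the cluster had ratios within 2-fold, with 0.830 for miR-17-5p and 1.45 (1.10 to 1.95) for miR-92a-3p.

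The ExoQuick libraries took no part in choosing the miRNAs or the calls. Of the 18 miRNAs called higher in C26 Wako, 15 had an ExoQuick interval above 1, 1 below it (let-7f-5p) and 2 that held 1 (miR-29b-1-5p and miR-5100). Of the 7 called higher in MC38 Wako, 6 had an ExoQuick interval below 1 and 1, miR-19a-3p, above it. Over all 161 miRNAs, 58.4% lay above 1 and 22.4% below, and over the 758 entries with any ExoQuick read the shares were 20.1% and 15.2%. The C26 calls were thus at 83.3% above 1, against 57.4% of the 136 miRNAs that were not called. With the share taken off, 19 of the 21 C26 calls lay above 1 in ExoQuick and 12 of the 13 MC38 calls below 1, but that step uses C26 ExoQuick reads and is not independent of them. Among all 161, 8 had intervals on opposite sides of 1 under the 2 kits, 4 in each direction.

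A line difference over all 4 libraries was fitted with edgeR's quasi-likelihood test, with kit as a term and Benjamini-Hochberg adjustment over 390 entries. It called 12 entries higher in C26, or 3.08%, and 7 higher in MC38, or 1.79%. Among the 161 miRNAs it called 11 higher in C26 and 1 in MC38. It shared 3 of its C26 calls with the Wako ratios. These were miR-125b-5p and miR-296-3p, with log2 differences of 3.46 and 4.86 for C26 minus MC38 and an edgeR adjusted p = 0.0484 each, and miR-3102-3p, with 0 reads in both MC38 libraries and an edgeR adjusted p = 0.0288. On the MC38 side it shared miR-146a-5p, with a log2 difference of -6.93 and an edgeR adjusted p = 0.00137. Each of these 4 had its direction under both kits, which a fit over both kits favours. The fit had 1 library per line and kit, so its spread is how far the line difference varied between the kits. Its p-values measure no spread between cultures.

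Families of a shared seed gave the counts more weight than single miRNAs, and 16 seeds had at least 2 of the 161. Shares below are percent of the library total with exact binomial 95% intervals. As listed reads summed to 34877 in C26 Wako and 3953 in MC38 Wako, above the totals, a read that matches several miRNAs may count for each of them.

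The let-7 seed held the largest share in both Wako libraries, 28.4% (28.0 to 28.9) in C26 and 30.3% (28.8 to 31.7) in MC38. The ratio of 0.940 (0.885 to 1.0) leaves the family as a whole close to equal, while with the share of C26 ExoQuick reads taken off it was 0.719 (0.676 to 0.767). The seed then kept 1091 of its 1170 reads in MC38 Wako, so the lower ratio follows the smaller MC38 Wako total. The let-7 family restrains Lin28, Hmga2 and Ras genes and is a hallmark of differentiated cells. Under ExoQuick the same seed held 6.66% in C26 and 5.78% in MC38.

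The miR-130 and miR-301 seed, with 3 miRNAs, held 7.54% (7.26 to 7.82) of C26 Wako and 17.2% (16 to 18.4) of MC38 Wako, a ratio of 0.439 (0.403 to 0.479). Under ExoQuick it held 20.2% in C26 and 55.7% in MC38, a ratio of 0.362, so the 2 kits lay close in ratio although the shares differed. The miR-125 seed went the other way, with 3.71% (3.51 to 3.92) of C26 Wako and 0.879% (0.610 to 1.23) of MC38 Wako, a ratio of 4.22 (3.01 to 6.13). Within that seed miR-351-5p, encoded on the X chromosome, stood apart, with 81 reads in C26 Wako, 14 in MC38 Wako and a ratio of 0.664 (0.374 to 1.27). The interval of miR-351-5p ends below those of miR-125a-5p and miR-125b-5p.

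The miR-29 seed held 1.74% of C26 Wako and 0.750% of MC38 Wako, a ratio of 2.32 (1.60 to 3.50). The miR-221 and miR-222 seed held 1.57% of C26 Wako and 0.646% of MC38 Wako, a ratio of 2.42 (1.62 to 3.78). Both were above 1 under ExoQuick as well, at 4.66 and 20.1. With the share taken off, the Wako ratios were 3.92 (2.22 to 7.62) for the miR-29 seed and 6.02 (2.90 to 15.0) for the miR-221 and miR-222 seed. The miR-25/92 seed held 8.94% of C26 Wako and 11.8% of MC38 Wako, a ratio of 0.756 (0.685 to 0.836), against 1.99 under ExoQuick. The miR-17/20/93 seed gave 0.809 (0.670 to 0.984) against 1.47, and the miR-19 seed 0.654 (0.502 to 0.863) against 1.44. These 3 seeds thus lay below 1 in the Wako pair and above 1 in the ExoQuick pair. The same cannot be said of the miR-17~92 cluster, as its product miR-92a-3p was at 1.45 in the Wako pair. Of the 3011 C26 Wako reads of the miR-25/92 seed, 2282 were of miR-25-3p, from the miR-106b~25 cluster. The list that joins miR-17~92 with another cluster had a summed Wako ratio of 0.957 (0.811 to 1.14), whose interval holds 1. The difference between the kits for these 3 seeds was not tested. With the share of C26 ExoQuick reads taken off, the Wako intervals of all 3 seeds held 1. The ratios were then 1.03 (0.897 to 1.18) for miR-25/92, 0.877 (0.694 to 1.12) for miR-17/20/93 and 0.936 (0.644 to 1.41) for miR-19. The intervals of miR-25/92 and miR-17/20/93 still ended below their ExoQuick intervals, which began at 1.97 and 1.43. That of miR-19 overlapped its ExoQuick interval.

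**Figure D2:**
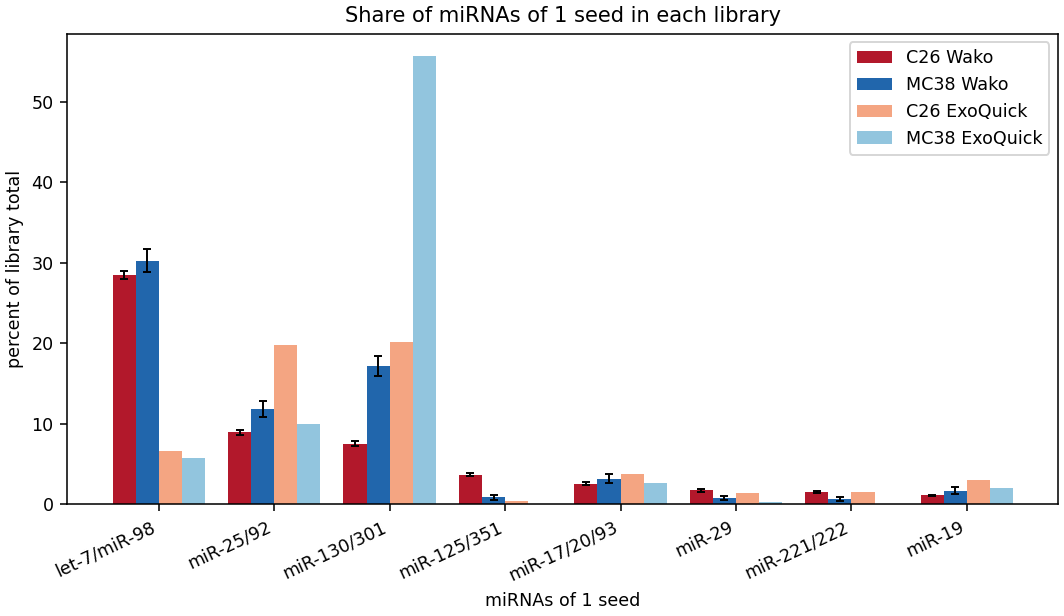
Percent of the library total held by miRNAs of 8 seeds in C26 Wako, MC38 Wako, C26 ExoQuick and MC38 ExoQuick, with exact binomial 95% intervals on the Wako bars. The let-7 bars of the Wako pair stand at 28.4% and 30.3%, and the miR-130 and miR-301 bars are higher in MC38 than in C26 under both kits.

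Within the let-7 family the make-up differed although the sum at library totals was close to equal. Substitutions are given from let-7a-5p, counted from 1 at the 5′ end, with the base of let-7a first. let-7c-5p (A19G) made up 21.7% (20.9 to 22.5) of the family in C26 Wako and 39.3% (36.5 to 42.2) in MC38 Wako. Its level was 61676 RPM (2078 reads) in C26 Wako and 118955 RPM (460 reads) in MC38 Wako, a ratio of 0.518 (0.468 to 0.575), just short of the 2-fold needed for a call, which it met at 0.379 (0.342 to 0.420) with the share taken off. let-7b-5p (A17G, A19G) was more even, with 25.3% of the family in C26 Wako and 28.3% in MC38 Wako, and a level ratio of 0.841 (0.749 to 0.946). let-7a-5p itself had 1745 reads (51793 RPM) in C26 Wako and 173 (44738 RPM) in MC38 Wako, a ratio of 1.16 (0.990 to 1.36).

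let-7d-5p, let-7f-5p and let-7e-5p took a larger share of the family in C26. let-7d-5p (U1A, U16C) made up 11.3% in C26 Wako and 6.24% in MC38 Wako, with a level ratio of 1.71 (1.35 to 2.19). let-7f-5p (G12A) made up 9.44% in C26 Wako and 4.10% in MC38 Wako, and let-7e-5p (U9G) made up 5.47% in C26 Wako and 1.37% in MC38 Wako. let-7i-5p and let-7g-5p had level ratios of 1.28 (0.921 to 1.83) and 1.38 (0.939 to 2.11), and miR-98-5p had 37 reads in C26 Wako and 0 in MC38 Wako. The intervals of let-7e-5p and let-7c-5p thus lay on opposite sides of 1, although each differs from let-7a-5p by 1 base. Since these miRNAs are so alike, a read with a miscalled base may be listed under a relative, and how such reads were assigned is not given in the sources used here.

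**Figure D3:**
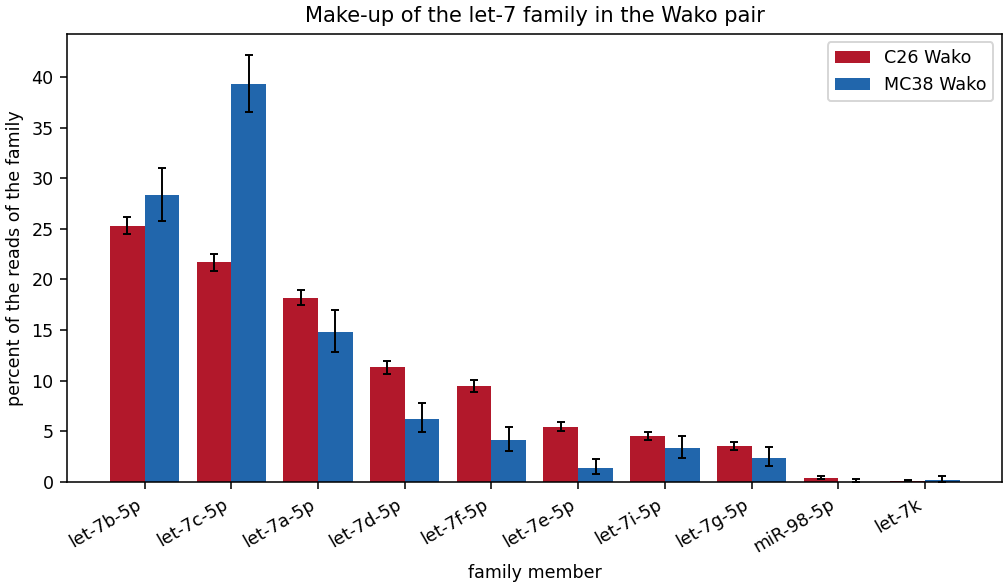
Percent of the reads of the let-7 seed that each of its 10 members took in C26 Wako (red) and MC38 Wako (blue), with exact binomial 95% intervals. let-7c-5p takes 21.7% in C26 and 39.3% in MC38, while let-7d-5p, let-7f-5p and let-7e-5p take larger shares in C26.

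Arms of a hairpin are cut from the same precursor, so their ratios were set side by side. Both arms were among the 161 for 38 hairpins, 4 of them paired by name alone, and in 37 the intervals of the arms overlapped. The exception was let-7b, with 0.841 for the 5p arm and 7.35 (1.27 to 295) for the 3p arm, which rests on 1 read in MC38 Wako. For the 25 hairpins with reads of both arms in both libraries, 20 had both arms on the same side of 1. With the share of C26 ExoQuick reads taken off, the intervals overlapped in 34 of the 38, and 13 of the 18 with reads throughout had both arms on the same side. Most of these intervals are wide, so overlap between arms is a weak statement.

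Among clusters, the miR-23a, miR-27a and miR-24-2 hairpins at chr8:84208518-84208921 gave ratios of 1.53 (1.28 to 1.85) for miR-23a-3p, 1.5 (1.02 to 2.28) for miR-23a-5p and 1.05 (0.853 to 1.31) for miR-24-3p, none of them called. The miR-29a and miR-29b-1 hairpins at chr6:31062660-31063093 held the calls miR-29a-3p and miR-29b-1-5p. The miR-106b~25 cluster at chr5:138165321-138165818 had 2282 reads of miR-25-3p in C26 Wako and 397 in MC38 Wako, a ratio of 0.660 (0.593 to 0.736). From the same cluster miR-93-5p had 629 reads in C26 Wako and 87 in MC38 Wako, a ratio of 0.830 (0.662 to 1.05).

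For 18 miRNAs the depth was enough to place the whole interval between 0.5 and 2, each with at least 128 Wako reads. With the most reads were let-7b-5p, miR-25-3p, let-7a-5p, miR-23a-3p, miR-690 and miR-214-3p. At library totals a 2-fold difference lies outside their counting interval. This held for 9 of the 18 with the share of C26 ExoQuick reads taken off, and 9 no longer met it. miR-690 had 1031 reads (30601 RPM) in C26 Wako and 97 (25084 RPM) in MC38 Wako, a ratio of 1.22 (0.990 to 1.52), and was at 80.3 RPM in C26 ExoQuick and 235 RPM in MC38 ExoQuick. miR-214-3p, a miRNA of mesenchymal cells, had 1050 reads (31165 RPM) in C26 Wako and 87 (22498 RPM) in MC38 Wako, a ratio of 1.39 (1.11 to 1.74), against 154 in the ExoQuick pair. With the share taken off, miR-214-3p had 969 reads in C26 Wako and 6 in MC38 Wako, a ratio of 13.3 (6.11 to 36.4), and miR-23a-3p was at 1.78 (1.41 to 2.28). The 6 reads of miR-214-3p are what was left of 87, so its interval is too narrow. miR-214-3p, miR-199a-3p and miR-199a-5p were then among 8 added C26 calls, miR-199a-3p by construction. miR-214-3p and miR-199a-5p are among the miRNAs whose proportions set the share, so their calls are not independent of it.

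What the 3867 reads of MC38 Wako can show depends on the level. A miRNA with 0 reads in MC38 Wako gives an interval above 1 only from 34 reads in C26 Wako, or 1009 RPM, and reaches a call from 53 reads. Of the 161 miRNAs, 77 had fewer than 34 reads in C26 Wako, so no count in MC38 Wako could have shown them higher in C26. Of the 36 with 0 reads in MC38 Wako, 30 were in that range, and 28 had a C26 level at or under the MC38 Wako floor of 776 RPM, so their 0 does not show an absence. At 10 reads in MC38 Wako an excess in C26 shows from a ratio of 1.89 and an excess in MC38 from 2.29-fold. At 100 reads the bounds were 1.23 and 1.25.

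The width of the interval, as upper over lower bound, had a median of 36.7 for the 44 miRNAs with 1 to 3 reads in MC38 Wako. It was 7.03 for the 33 with 4 to 9 reads, 2.81 for the 26 with 10 to 29, 1.74 for the 16 with 30 to 99 and 1.25 for the 6 with 100 to 572. Of the 125 miRNAs with reads in both libraries, 85 had intervals that hold 1. For those, no difference was detected beyond counting error. Some of these intervals were narrow, such as 0.853 to 1.31 for miR-24-3p, and left a 2-fold difference outside. The minimum of 10 reads stands for 297 RPM in C26 Wako and for 2586 RPM in MC38 Wako, so a miRNA at an equal level between these values enters through C26 Wako alone.

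**Figure D4:**
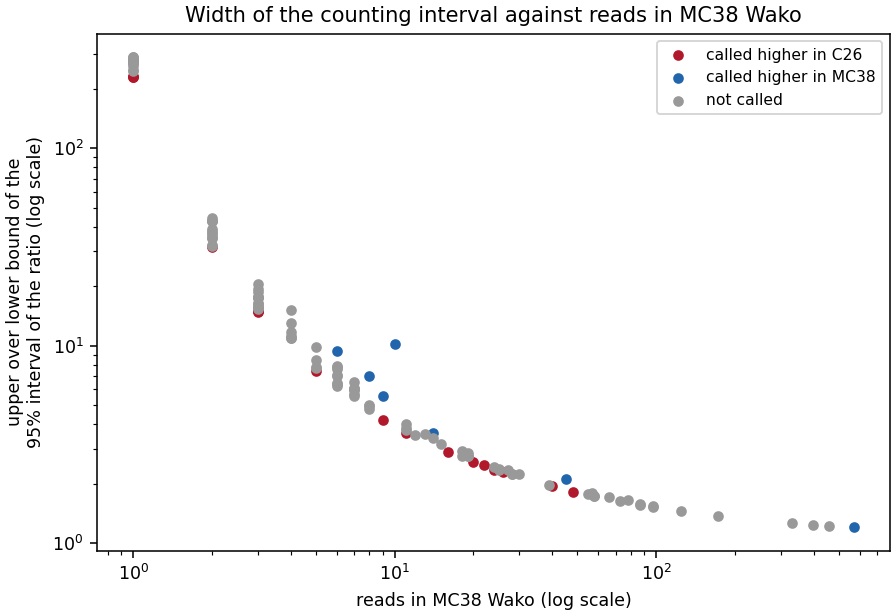
Upper over lower bound of the exact 95% interval of the ratio against reads in MC38 Wako, both on log scales, for the 125 miRNAs with reads in both Wako libraries, coloured by call. The width falls from a median of 36.7 at 1 to 3 reads to 1.25 at 100 to 572 reads.

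At the edge of the rule, 6 miRNAs had exactly 10 reads in the library that let them in and 5 entries had 9. The first were miR-1249-5p, miR-126a-3p, miR-146a-5p, miR-29c-3p, miR-3154 and miR-93-3p, with 0 to 10 reads in MC38 Wako. The second were miR-24-2-5p, miR-3102-3p.2-3p, miR-328-5p, miR-3960 and miR-671-5p, each with 9 reads in C26 Wako and 1 to 4 in MC38 Wako. Of the 261 entries under the minimum that had Wako reads, 7 met the call, all higher in MC38. They included miR-532-5p with 8 reads in each Wako library and miR-30b-5p with 3 in C26 Wako and 6 in MC38 Wako. The minimum of 10 reads thus left out 7 calls, all of them in the MC38 direction.

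Other families were counted from lists, to be read against the 11.2% called higher in C26 and 4.35% in MC38 over the 161 (4.27% and 3.32% over the 422). Of the 3 miRNAs from the list of miR-125 and miR-99/100, 2 were called higher in C26, and all 3 with the share of C26 ExoQuick reads taken off. Of 6 listed miRNAs raised in human colorectal tumours, 3 were among the 161, of which miR-21a-5p and miR-31-5p were called higher in C26, and miR-183-5p had 0 reads in MC38 Wako. None of 4 miRNAs of the p53-induced miR-34 family was called, with a summed ratio of 1.57 (1.06 to 2.42), while miR-34a-5p was called higher in C26 with the share taken off. Of 7 listed white blood cell markers, 6 were among the 161, and of these miR-146a-5p alone was called, higher in MC38. The summed ratio over all 7 was 0.767 (0.575 to 1.04), or 0.611 (0.451 to 0.844) with the share taken off. Counts this small on short lists are descriptions, and nothing is read from them about a list.

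The called miRNAs were also described by composition, with no test. The median G and C content was 50% for those called higher in C26, 40.9% for the 6 with a sequence called higher in MC38, and 50% for those not called. Median lengths were 22 bases for the C26 calls, 22.5 for the MC38 calls and 22 for those not called.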

How the data were processed

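Small RNA of exosomes was sequenced in 4 libraries, 1 per line and kit. The authors deposited 1 table with a normalized signal for each of 795 mature miRNAs in each library, and DESeq2 is named, with no version, in the submitters' processing notes. Which aligner, counting tool, build and miRNA annotation were used is not given in the sources used here. All values above 0 (100% in every library) lay within 0.006 of a whole multiple of a step, which was the worth of 1 read of a whole-number library total, so the deposited signal was read as RPM and whole reads were recovered. There were 0 columns of other samples. Entries with identical values in all 4 libraries, such as miR-199a-3p and miR-199b-3p, cannot be told apart, and 158 distinct profiles remain of 161. The members and lists were chosen with earlier results of these data known.

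Ratios used library totals of 33692 reads for C26 Wako and 3867 for MC38 Wako. Their exact intervals came from the Clopper-Pearson interval (95%) of the share of reads in C26, with scipy 1.17.1 and pandas 2.3.3 in Python 3.11.15 (figures with matplotlib 3.10.9). As each group had 1 library, no p-value was computed for a ratio. The line test over all 4 libraries was edgeR 4.0.16 (quasi-likelihood, R 4.3.3) on the recovered reads, for entries with a mean of at least 10 RPM, with library totals as sizes and a threshold of 0.05. Intervals and the edgeR fit were tested on simulated data.

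The miRNAs named were the 10 with the highest mean, up to 12 calls per direction by the bound nearest to 1, the 6 with most reads against 0, the 6 with most reads among intervals between 0.5 and 2, up to 8 on opposite sides under the kits, the best-read of described lists and the edge of the rule. Others, such as further calls, arms and cluster partners, were named after their values were seen. Hairpin coordinates are those of GENCODE for GRCm38, and hairpins within 10 kb were read as a cluster. The totals of the ExoQuick libraries, which are not replicates of the Wako ones, were used beside the ratios, in edgeR and, for C26, in the alternative that takes a share of these reads off.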

Additional observations from a re-analysis of the deposited data

Results flagged for a closer look

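For 8 miRNAs the Wako pair and the ExoQuick pair, which compare the same lines, gave intervals on opposite sides of 1. The difference between the kits was not tested, as each pair has 1 library a side. Higher in C26 under Wako and lower under ExoQuick were let-7f-5p, with a ratio of C26 over MC38 of 2.16 (1.62 to 2.96) against 0.629 (0.550 to 0.721), let-7d-5p, with 1.71 (1.35 to 2.19) against 0.802 (0.740 to 0.869), and miR-23a-5p, with 1.5 (1.02 to 2.28) against 0.870 (0.763 to 0.995). miR-186-5p had 35 reads in C26 Wako and 0 in MC38 Wako, against 0.715 (0.528 to 0.979) under ExoQuick. Its Wako level was 1.34 times the 3-read floor, and its Wako interval began at 1.03.

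Lower in C26 under Wako and higher under ExoQuick were let-7b-5p, with 0.841 (0.749 to 0.946) against 1.43 (1.4 to 1.46), and miR-25-3p, with 0.660 (0.593 to 0.736) against 1.91 (1.88 to 1.93). The same held for miR-19b-3p, with 0.713 (0.538 to 0.960) against 1.38 (1.35 to 1.42), and miR-19a-3p, with 0.281 (0.124 to 0.692) against 2.25 (2.05 to 2.49). Of the 8, let-7f-5p and miR-19a-3p had been called in the Wako pair, and both calls were lost after the share of C26 ExoQuick reads was taken off. In that alternative, chosen after seeing the data, the Wako intervals of 6 of the 8 held 1, those of miR-25-3p at 0.906 (0.781 to 1.06), miR-19b-3p at 1.06 (0.708 to 1.67), miR-19a-3p at 0.297 (0.106 to 1.02), let-7d-5p at 1.26 (0.991 to 1.63), miR-23a-5p at 1.11 (0.753 to 1.71) and miR-186-5p. The other 2 kept their side, with let-7f-5p at 1.59 (1.18 to 2.18) and let-7b-5p at 0.698 (0.617 to 0.793). Median-of-ratios scaling moves let-7f-5p under 2-fold.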

How the results depend on the processing

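No paired analysis was possible because each line had 1 library per kit and no replicate numbers. The 18 miRNAs called higher in C26 became 12 to 18 under other scalings, minimum reads or a 99% interval and 26 at a fold of 1.5. They became 7 at a fold of 4 and 4 with the interval wholly beyond 2-fold (all 4 above 1 in ExoQuick). The edgeR line test called 11 of the 161 higher in C26, of which 3 were among the 18. The 7 called higher in MC38 became 4 at a minimum of 20 reads (3 of them below 1 in ExoQuick), at the level of 10 MC38 reads and at a fold of 4, 3 with the interval wholly beyond 2-fold (all 3 below 1 in ExoQuick), 14 with no minimum and 1 in edgeR. Taking off the share of C26 ExoQuick reads, chosen after seeing the data, gave 21 called higher in C26 and 13 in MC38 (12 of them below 1 in ExoQuick). The 21 include miR-199a-3p and miR-199b-3p by construction. They also include miR-214-3p, miR-199a-5p, miR-222-3p and miR-296-3p, which are among the miRNAs whose proportions set the share. Where the minimum or fold was raised, fewer miRNAs could pass by construction. Taking off the share lowers the MC38 Wako total by 30.6%, so miRNAs that lose few reads fall in ratio by construction. Further causes there, and those for edgeR, were not tested. Median-of-ratios scaling ended the C26 calls of let-7f-5p, miR-21a-5p, miR-221-3p, miR-296-3p, miR-296-5p and miR-99b-3p. Of 116 log2 ratios of 29 named miRNAs under 4 other scalings, 112 stayed within the counting interval and 4 left it, and 2 changed sign, both of miR-24-3p, which was not called. The depth limit of 34 reads was 35 to 49 under 3 alternatives chosen after seeing the data. What limits the comparison is the MC38 Wako depth: most ratios there rest on fewer than 10 reads, and no spread between cultures was measured.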
